A study of Mus musculus with 5 samples.

Results

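Early-response basal keratinocytes were described in single-cell RNA-seq libraries of mouse skin. They are cells of the inner, Krt5- and Krt14-expressing layer of the epidermis that carried the most transcripts of Fos, Id1, Klf2, Btg2 and Socs3. Levels are given throughout as unique molecular identifiers (UMIs, each a tagged transcript molecule) per 10,000 UMIs of the cells concerned. After removal of barcodes with fewer than 200 genes or over 10% mitochondrial UMIs, a cell was basal if Krt5 and Krt14 together reached 100, Krt1 and Krt10 stayed under 50, Krt79 under 5 and Col17a1 under 10, with fewer than 3 of 7 cycling genes (Ube2c, Cdc20, Top2a, Birc5, Cenpf, Cenpa and Ccnb1) and no UMI of Fosl1. The 25% of these cells with the highest sum of Fos, Id1, Klf2, Btg2 and Socs3, pooled over libraries, formed the population. It held 687 cells, of 2749 basal cells and 26845 cells that passed the first filter, out of 27317 barcodes. The skin came from C57BL/6 mice and was profiled in 2 libraries of un-wounded skin and 3 of wounded skin. Wounds were cut with a 6-mm punch at 7 weeks of age. A wider punch of 10 mm took them out on day 4 together with some surrounding skin, and live cells were sorted with no selection for a cell type. No genetic change or drug is named for either group, and no further age for the un-wounded animals. Since nothing in the labels ties a library to its own animal, p-values measure only the spread between these libraries, which may be technical.

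Immediate early genes are transcribed within minutes of a stimulus such as a growth factor, a cytokine or a physical stress, without new protein synthesis, through factors already present in the cell. Fos pairs with Jun proteins to form the transcription factor AP-1, Klf2 is a zinc-finger factor, and Id1 is a helix-loop-helix inhibitor that BMP signals induce. Btg2 slows the cell cycle and promotes removal of poly(A) tails, and Socs3 is induced by STAT3 and shuts off the cytokine receptors that activate it. In skin these genes respond to wounding and stretch, and they are also known to be induced while tissue is digested into single cells. No measure of the digestion came with these libraries, so its part in any level given here was not tested.

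The promoters of 4 of these genes are shown because 3 of them, Fos, Btg2 and Socs3, made up most of the score that chose the cells and Zfp36 climbed with it, and because their upstream bases hold known response elements. Each line gives the 250 bases before the RefSeq transcription start on GRCm38.p6, 5′ to 3′ on the gene's strand, with the matched motif in capitals. For Fos the window is chr12:85473640-85473889 on the plus strand and the capitals mark TGACG, the core of the cAMP response element. For Btg2 (chr1:134079156-134079405, minus strand) they mark the full element TGACGTCA. For Socs3 (chr11:117969367-117969616, minus strand) they mark TTCNNNGAA, the spacing bound by STAT factors. For Zfp36, which encodes an RNA-decay factor and lies outside the rule (chr7:28379229-28379478, minus strand), they mark a CArG box, the serum response element, followed by TTCNNNGAA.
Fos: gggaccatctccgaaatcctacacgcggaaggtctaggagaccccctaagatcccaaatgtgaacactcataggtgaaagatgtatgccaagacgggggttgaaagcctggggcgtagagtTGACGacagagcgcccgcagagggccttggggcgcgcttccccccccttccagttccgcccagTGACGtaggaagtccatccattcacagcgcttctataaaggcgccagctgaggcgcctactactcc
Btg2: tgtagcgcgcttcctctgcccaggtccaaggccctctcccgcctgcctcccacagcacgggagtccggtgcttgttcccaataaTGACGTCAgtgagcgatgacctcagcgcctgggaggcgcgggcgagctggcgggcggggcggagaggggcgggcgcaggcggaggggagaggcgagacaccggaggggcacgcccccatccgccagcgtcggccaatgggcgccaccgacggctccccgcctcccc
Socs3: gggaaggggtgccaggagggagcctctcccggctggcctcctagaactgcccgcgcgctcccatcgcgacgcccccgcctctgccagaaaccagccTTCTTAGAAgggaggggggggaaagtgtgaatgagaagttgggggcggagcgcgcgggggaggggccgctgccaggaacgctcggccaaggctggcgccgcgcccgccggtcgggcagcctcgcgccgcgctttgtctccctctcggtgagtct
Zfp36: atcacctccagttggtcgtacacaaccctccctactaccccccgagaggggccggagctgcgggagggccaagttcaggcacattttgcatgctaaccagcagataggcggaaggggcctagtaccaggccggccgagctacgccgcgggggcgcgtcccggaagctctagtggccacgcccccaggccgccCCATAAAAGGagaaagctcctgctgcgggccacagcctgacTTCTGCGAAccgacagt
The TGACG copies of Fos began 129 and 66 bases before the start, the Btg2 element 166 bases before it, the Socs3 element 154 bases before it, and the CArG box of Zfp36 58 bases before it. Both strands were searched, and every TGACGTCA also counts as the shorter core. This core was present in 17.8% of all 32851 promoter windows of this length, TGACGTCA in 1.55%, TTCNNNGAA in 7.02%, the CArG box in 1.47% and the AP-1 site TGAGTCA in 4.46%. Of the 5 genes of the score and the 15 genes that differed most upwards between early-response and other basal cells, 15 of 20 had a window, and 9 of these 15 held TGACG, against 19.8% of all genes with a window. Those 9 were Atf3, Btg2, Dnajb1, Fos, Fosb, Junb, Klf2, Nr4a1 and Tubb4b. Fos, Btg2 and Klf2 belong to the rule and the rest were picked by their ratio in these same cells. The share therefore describes a chosen list and was not tested. None of the 15 held TGAGTCA, TGACGTCA was in Btg2 alone, the CArG box in Zfp36 alone, and TTCNNNGAA in Socs3 and Zfp36. A match describes letters in the window and is not a measured binding site. Elements farther than 250 bases upstream, or in listed genes without a window, were not searched for, so a missing match does not mean that a gene lacks the element.

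Fos made up most of what selected these cells. Of the score UMIs in the 687 cells, 57.1% were Fos, 29.2% Btg2, 8.34% Socs3, 2.84% Id1 and 2.47% Klf2. A Fos UMI was present in all 687 cells, Btg2 in 686, Socs3 in 652, Id1 in 382 and Klf2 in 354. Fos was the largest part of the score in 600 cells and Btg2 in 87. Of the 5 genes, 210 cells had all 5, 295 had 4, 167 had 3 and 15 had 2, so every cell had a UMI of at least 2 of them. Fos was at 107 and 116 in the early-response cells of un-wounded libraries 1 and 2, and at 105, 118 and 77.6 in those of wounded libraries 1 to 3, against 37.5, 24.8, 38.4, 18.6 and 24.5 in other basal cells. Btg2 was at 55.3, 46.1, 57.4, 33.5 and 61.7 in the same order, and Socs3 at 17.0, 18.4, 11.2, 8.13 and 12.0. Id1 was at 5.60, 5.66 and 3.87 in the first 3 of these libraries and Klf2 at 4.81, 6.41 and 3.63. These levels describe the choice of cells. The population is a range of a continuous score and not a separate cell type. The threshold lay at 137 per 10,000, the 3 lowest cells inside were at 137.4 to 137.6, the 3 highest outside at 137.3, and 287 basal cells lay within 10% of it.

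The 5 libraries contributed very unequally. Un-wounded library 1 held 432 of the cells, un-wounded library 2 51, wounded library 1 196, wounded library 2 2 and wounded library 3 6. Among basal cells the early-response share was 28.9% (95% exact binomial interval 26.6 to 31.3) in un-wounded library 1, 11.2% (8.48 to 14.5) in un-wounded library 2, 27.6% (24.4 to 31.1) in wounded library 1, 8.33% (1.03 to 27.0) in wounded library 2 and 8.82% (3.31 to 18.2) in wounded library 3. Intervals here and below cover counting error only. The first library of each group was high and the others were low, so the ranges of the groups overlapped. The mean share was 20.1% ± 12.5 (SD, n = 2) in un-wounded and 14.9% ± 11 (SD, n = 3) in wounded skin, a difference of -5.14 percentage points (exact two-sided permutation test over 10 assignments, p = 0.5, smallest possible p = 0.1). Without un-wounded library 1 the difference turned to 3.70 percentage points. Basal cells numbered 1494 and 454 in un-wounded skin, 709 in wounded library 1, and only 24 and 68 in wounded libraries 2 and 3. Library totals ran from 33537809 to 59621412 UMIs.

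**Figure D1:**
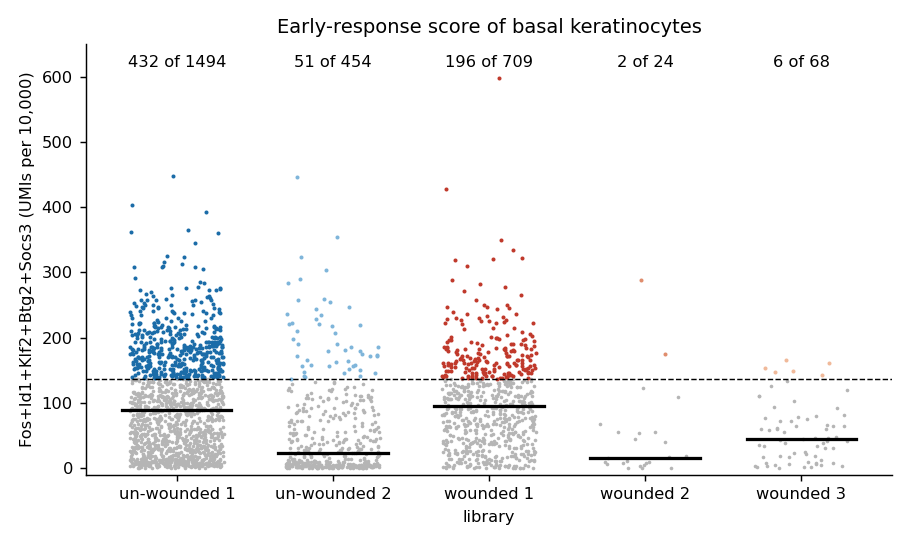
Score of every basal keratinocyte, the sum of Fos, Id1, Klf2, Btg2 and Socs3 in UMIs per 10,000 (vertical axis), by library. Each point is a cell, coloured where it is early-response and grey otherwise, black bars are library medians, the dashed line is the threshold of 137, and the numbers above give early-response of all basal cells. Medians of 89.3 and 95.1 in un-wounded library 1 and wounded library 1 stand over 23.8, 16.3 and 45.6 in the others.

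The whole basal population of a library was shifted, not a few of its cells. The median score of basal cells was 89.3 in un-wounded library 1 and 23.8 in un-wounded library 2. In the wounds it was 95.1, 16.3 and 45.6, a difference of the group means of library medians of -4.24 (exact two-sided permutation test, p = 0.8). In cells under the limit of Krt5 and Krt14, the median score was 39.9 and 35.1 in un-wounded and 34.9, 19.2 and 12.4 in wounded skin, a difference of -15.4 (exact two-sided permutation test, p = 0.2). In those cells the first wounded library did not stand above the un-wounded ones. In un-wounded library 1, in un-wounded library 2 and then in wounded library 1, the order used below for 3 values, early-response cells had a median depth of 6818.5, 9966 and 6038 UMIs, against 5892, 8210 and 6158 in other basal cells. Their median mitochondrial share was lower in each of these 3 libraries, 2.31, 2.41 and 2.42% against 2.90, 2.80 and 2.69%. Thinning every basal cell to 1500 UMIs before scoring gave a difference in share of -5.07 percentage points.

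The cells carried the markers of basal keratinocytes. Krt15, a basal keratin outside the rule, was at 187, 123 and 158, against 178, 95.7 and 132 in other basal cells. Itga6, the integrin of hemidesmosomes, was at 2.29, 2.45 and 1.91. Trp63, the factor that maintains the basal layer, was at 1.75, 2.22 and 1.91, against 2.80, 3.63 and 2.23 in other basal cells. Of 15 basal adhesion and identity genes, 1 (Krt15) was higher in all 3 libraries, 6 were lower and 8 were mixed. Markers of hair follicle keratinocytes were present in some cells. Over 20 for the 8 bulge and outer root sheath markers were 16.9, 13.7 and 12.2% of early-response cells, against 14.1, 11.4 and 10.1% of other basal cells. Over 20 for 5 upper follicle and sebaceous markers were 8.56, 11.8 and 8.67%, against 4.80, 4.47 and 8.38%. Markers of cells other than keratinocytes were few, apart from those of fibroblasts. The endothelial list summed to 0.0471, 0.0574 and 0.168, the T cell list to 0.555, 0.0574 and 0.152, and the melanocyte list to 0.0101, 0 and 0 in the same 3 libraries. The leukocyte list of 7 genes summed to 1.64, 1.09 and 1.84, and 2 early-response cells were over 20 for it. The fibroblast list of 7 genes summed to 7.99, 17.1 and 9.35, with 2, 12 and 6 cells over 20. These were 0.463, 23.5 and 3.06% of the early-response cells, against 0.659, 15.6 and 4.48% of other basal cells. In wounded library 1 the fibroblast sum was 29.4 in other basal cells, although its median per cell was 8.75 in early-response and 8.96 in other basal cells. Over the 2 cells of wounded library 2 the follicle keratin Krt17 was at 58.4 and Id1 at 48.8, against at most 6.02 and 5.66 in the early-response cells of the other libraries, so levels from that library describe 2 cells only. Among all barcodes, 407 occurred in more than 1 library, 24 of the early-response cells carried such a barcode, and in no case were both copies early-response cells.

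Apart from the genes that chose them, the early-response cells carried more of nearly the whole immediate early programme. Since a cell was chosen by its Fos and Btg2 content, this comparison with the other basal cells of the same library is a description and was not tested. Of 6687 genes with a mean level of at least 0.1, 13.6% were higher and 24.8% lower in early-response cells in all 3 libraries with at least 10 of them, and the median log2 ratio (with 0.05 added to each level) was -0.04. Of the 18 measured genes of a list of 21 immediate early transcription factors, 15 were higher in all 3 libraries and none was lower, with a median log2 ratio of 1.03. The list's summed level was 332, 318 and 333 in early-response cells against 157, 90.8 and 200 in other basal cells.

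Ier2, a short-lived nuclear regulator, had the largest ratio among genes with a level of at least 1. It was at 25.6, 19.9 and 27.0, against 10.3, 5.23 and 12.0 in other basal cells, a 2.76-fold mean ratio (log2 1.47 ± 0.40, SD, n = 3 libraries). It was higher in 5 of 5 libraries. Atf3, a stress-induced repressor of the ATF family, was at 74.6, 76.6 and 68.1 against 32.8, 16.8 and 41.4, 2.57-fold. Its early-response levels were close together while the levels in other basal cells spread widely. Jun, the partner of Fos in AP-1, was at 71.7, 61.7 and 69.8 against 33.6, 17.7 and 37.4, 2.40-fold. Junb was at 60.6, 50.6 and 61.1 against 27.9, 15.1 and 36.7, 2.29-fold. Jund, the family member that is usually present without a stimulus, had a smaller log2 ratio of 0.88 ± 0.35. Egr1, the serum-induced zinc-finger factor, was at 13.8, 18.5 and 18.1 against 6.28, 4.72 and 9.57, 2.52-fold. Klf6 (2.17-fold), the orphan receptor Nr4a1 (2.22-fold) and Fosb (2.08-fold) were also higher in every library. Ier3, a regulator of cell survival, was higher in the 3 larger libraries, at 9.08, 7.08 and 9.21 against 4.25, 2.22 and 7.50, but not in wounded library 3, where the 6 cells were at 1.13 against 4.63. Csrnp1, Ier5 and Klf10 were the measured members with mixed directions.

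**Figure D2:**
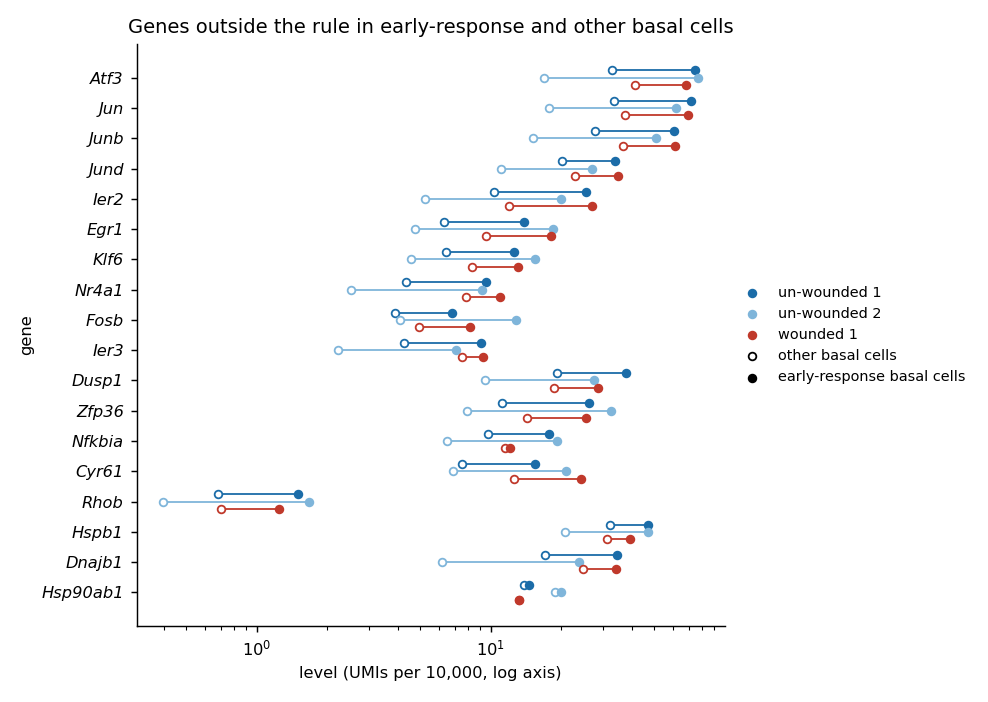
Levels of 18 genes that the rule did not use, in UMIs per 10,000 on a log axis, in early-response (filled) and other basal cells (open) of the 3 libraries with at least 10 early-response cells. Nearly all lines run to the right. Nfkbia in wounded library 1 (11.5 to 12.1) and Hsp90ab1 in every library have the shortest lines.

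Inhibitors that limit the same signals, such as Zfp36 and Dusp1, went with them. A list of 27 genes held feedback inhibitors, RNA-decay factors and others such as Ctgf. Of its 24 measured genes, 16 were higher in all 3 libraries and none was lower, with a median log2 ratio of 0.68. Zfp36, which binds AU-rich elements of immediate early transcripts and speeds their decay, was at 26.2, 32.6 and 25.4 against 11.2, 7.91 and 14.3, 2.57-fold. Dusp1, the phosphatase that inactivates MAP kinases, was at 37.7, 27.5 and 28.6 against 19.2, 9.46 and 18.5. Cyr61, a matrix-associated target of YAP, was at 15.5, 20.9 and 24.3 against 7.49, 6.89 and 12.5, 2.29-fold. Rhob, a rapidly turned over small GTPase, differed 2.40-fold. Nfkbia, the inhibitor of NF-kappaB, was at 17.7 and 19.1 against 9.76 and 6.52 in un-wounded skin, but at 12.1 against 11.5 in wounded library 1. Ctgf, another YAP target, was at 0.918 in un-wounded library 2, at 0.00672 in un-wounded library 1 and at 0 in wounded library 1, so that its level was set by few cells of 1 library.

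In the BMP, JAK-STAT and Notch lists, a smaller part of the measured genes was higher in all 3 libraries. Id1 and Socs3, which chose the cells, were not counted in these lists. In the list of BMP and TGF-beta targets, 3 of 8 measured genes were higher and none was lower. Id3 was at 4.55, 7.33 and 4.18 against 2.73, 2.21 and 3.90, and Id2 at 0.400, 1.36 and 0.345 against 0.201, 0.175 and 0.217, while Bmp4, the ligand, and Bmpr1a, a receptor, had mixed directions. In the JAK-STAT list, 2 of 7 were higher, Junb and Stat3, and Stat3 was at 1.05, 1.44 and 0.994 against 0.744, 0.767 and 0.898. The list's summed level, most of it from Junb, was 64.0, 55.0 and 64.2 against 30.5, 17.8 and 40.4. In the Notch list, Hes1 and Dll1 were higher and Nrarp was lower among 6 measured genes, and the receptor Notch1 had a mixed direction.

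Heat shock genes were divided. Of 13 measured, 7 were higher and 1 was lower in all 3 libraries, with a median log2 ratio of 0.27. Dnajb1, an inducible Hsp40 co-chaperone, was at 34.6, 23.9 and 34.1 against 17.0, 6.19 and 24.9, 2.20-fold. It was higher in 4 of 5 libraries but at 0.478 against 2.99 in wounded library 2, which holds 2 early-response cells. Hspb1, a small heat shock protein that keratinocytes express strongly, was at 46.7, 46.9 and 39.1 against 32.3, 20.7 and 31.4. The list's median per cell was 132, 126 and 119 in early-response and 84.2, 56.8 and 93.2 in other basal cells. Heat shock transcripts as a list thus moved with the immediate early genes in these 3 libraries, although 5 of the 13 genes had mixed directions. Which stimulus set either was not tested.

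Counted gene by gene, differentiation and energy metabolism were mostly lower. Of 10 measured differentiation genes, 7 were lower and 1 was higher in all 3 libraries, with a median log2 ratio of -0.50. Krtdap, a secreted protein of the first differentiating layers, was at 1.85, 1.3 and 0.842 against 2.26, 3.23 and 3.43, a 0.443-fold ratio and the largest difference downwards. Calm4, a calmodulin-like protein of differentiating epidermis, had a ratio of 0.548. Sfn, the 14-3-3 protein of stratified epithelia, was the member that was higher, at 103, 67.0 and 93.9 against 61.6, 23.8 and 77.6. With this abundant gene in it, the list's median per cell was higher in early-response cells, at 144, 103 and 137 against 106, 69.6 and 125. The rule itself kept out cells with much Krt1 and Krt10, but in both sets alike. Of 15 oxidative phosphorylation genes, 12 were lower and 1 was higher, by small amounts (median log2 ratio -0.19). Cox4i1, a subunit of cytochrome c oxidase, was at 13.5, 11.2 and 12.7 against 15.5, 14.0 and 14.1. Of 15 basal adhesion and identity genes, 6 were lower and 1 (Krt15) was higher. Trp63 had a ratio of 0.695. Other genes at the lower end were Col1a1 (0.552), Dcn (0.557), Fcgbp (0.618), Clca3a2 (0.682) and Ybx3 (0.698), of which Col1a1 and Dcn are fibroblast transcripts. At the upper end the rule also named Fst, an antagonist of activin (2.32-fold), the tubulin Tubb4b (2.18-fold) and the cell cycle inhibitor Cdkn2d (2.11-fold). Fst and Tubb4b were higher in 3 of 5 libraries, not in wounded libraries 2 and 3.

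The differences rose by degrees along the score and did not begin at the threshold. Basal cells were divided into 4 quartiles of the pooled score, of which the highest is the early-response population. In un-wounded library 1, Jun went from 9.82 in the lowest quartile to 29.6, 51.0 and 71.7, and to 78.7 in the top 10%. In un-wounded library 2 it went from 3.87 to 23.3, 41.0 and 61.7, and in wounded library 1 from 11.8 to 35.5, 51.1 and 69.8. Atf3 went from 2.23 to 76.6 in un-wounded library 2 and from 18.1 to 68.1 in wounded library 1, a difference that lies mainly in the lowest quartile. Zfp36 went from 3.46 to 26.2, from 1.37 to 32.6 and from 4.40 to 25.4 in the 3 libraries. Hsp90ab1, a heat shock gene present without stimulus, was nearly level, at 13.2 and 14.5 in the lowest and highest quartiles of un-wounded library 1. Krt15 was at 151, 84.1 and 94.2 in the lowest and at 187, 123 and 158 in the highest quartile. All cells of a library share its preparation, and these levels have no test because the same cells' transcripts define the quartiles.

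**Figure D3:**
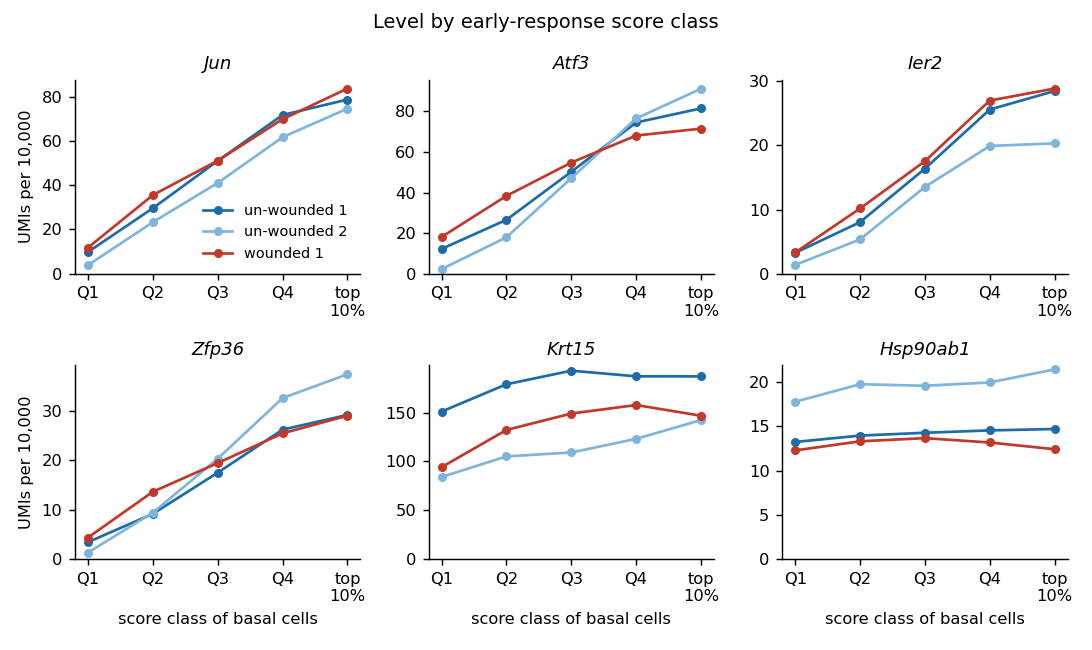
Level in UMIs per 10,000 (vertical axes, each from 0) of 6 genes outside the rule in the 4 quartiles of the pooled score and in its top 10%, for the 3 libraries with at least 10 early-response cells. Jun, Atf3, Ier2 and Zfp36 climb through all 4 quartiles, whereas Hsp90ab1 stays between 12.3 and 21.4.

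The same threshold was also passed by cells outside the basal rule. Among basal cells with a Fosl1 UMI, a gene of migrating keratinocytes, 21.0% (17.7 to 24.5) and 18.3% (11.7 to 26.5) passed it in un-wounded skin, and 7.37% (5.75 to 9.29), 7.69% (0.195 to 36.0) and 0% (0 of 91 cells, interval up to 3.97) in the wounds, so the groups did not overlap, a difference that was not tested. Among cells kept out for high Col17a1, the shares were 7.58 and 1.99% in un-wounded skin and 10.2, 0 and 0% in the wounds, where wounded libraries 2 and 3 held only 7 and 3 such cells. Cycling basal cells passed it in 18.5 and 3.12% of cases in un-wounded skin, with un-wounded library 1 high again, and in 11.7, 0 and 0% in the wounds. Cells under the keratin limit passed it in 13.3 and 8.2% of cases in un-wounded skin and in 6.76, 4.44 and 1.53% in the wounds. There too the groups did not overlap, whereas in the remaining classes outside the basal rule they did. Whether the early-response share differed between these classes was not tested.

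**Figure D4:**
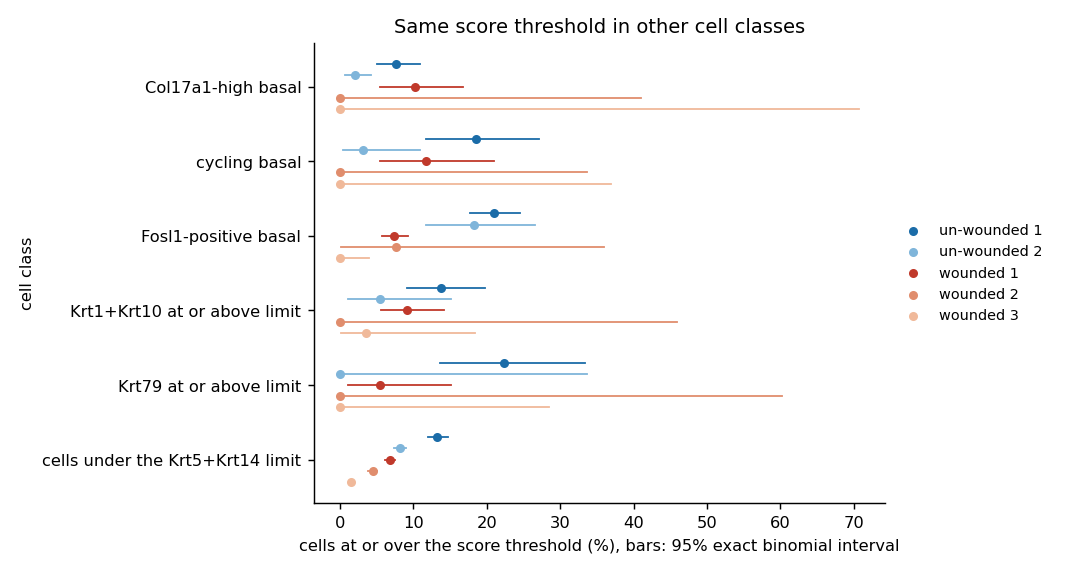
Share of cells at or over the early-response threshold (horizontal axis, %) in 6 classes of cells outside the basal rule, by library, with 95% exact binomial intervals. Fosl1-positive basal cells are at 21.0 and 18.3% in un-wounded skin and at most 7.69% in wounded skin. Cells under the keratin limit are at 13.3 and 8.2% and at most 6.76%, and classes with few cells have wide intervals.

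Between wounded and un-wounded skin, few genes differed within the early-response cells, and none of the listed immediate early genes was called. UMIs were summed over the early-response cells of each library and tested with edgeR's quasi-likelihood test (Benjamini-Hochberg adjustment over all genes). The main comparison set un-wounded libraries 1 and 2 against wounded library 1, the 3 with at least 10 such cells, so the lone wounded library is assumed to vary as the un-wounded ones do. At an adjusted p under 0.05, 20 of 7994 genes (0.25%) changed, 15 higher (0.188%) and 5 lower (0.0625%), and 248 had an unadjusted p under 0.05. With DESeq2, 2 genes were called, Cxcl2 and Ccl2. Removal of likely doublets left 5 calls, cells thinned to 1500 UMIs gave 4, and taking each gene's 2 highest cells out of the sums gave 4. Of 19 immediate early genes tested, 0 were called by edgeR or DESeq2, and 0 had an unadjusted p under 0.05 in edgeR. Since the cells of every library were chosen by 1 threshold on a score that these genes climb with, the choice itself brings their levels together, and the absence of a call says nothing about how wounding acts on them. Egr4, an EGR-family gene that is not on the list, was called higher, at 0.178 and 0.0191 against 0.421 (log2 1.72 ± 0.43, SE, edgeR adjusted p = 0.0257), and is named after its value was seen. The listed genes' median log2 difference was 0.11, against -0.02 over all genes, and Jun (0.13 ± 0.35, SE), Atf3 (-0.09 ± 0.35) and Egr1 (0.23 ± 0.36) each had an adjusted p of 1 in edgeR. The feedback list had 1 of 25 called, Ctgf, which was at least 5.66-fold lower against a floor of 3 UMIs in wounded library 1, and 48 of its 50 un-wounded UMIs came from un-wounded library 2. None of 15 oxidative phosphorylation, 15 basal adhesion, 10 differentiation, 8 BMP and TGF-beta or 13 heat shock genes was called by edgeR.

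Of the 6 genes called higher that met the naming rule, 4 were chemokine genes. Cxcl2, a neutrophil attractant, had 2 and 0 UMIs in the un-wounded libraries against 138 in wounded library 1, levels of 0.00672, 0 and 1.16. The ratio was 203 (95% exact counting interval 55.2 to 1696), and edgeR's adjusted p was 4.38e-35. It was at 1.91 and 1.13 in the 2 and 6 cells of wounded libraries 2 and 3, so all 3 wounded libraries lay above both un-wounded ones. Ccl2, a monocyte attractant, was at 0.161 and 0.153 in un-wounded skin and at 1.31 in wounded library 1, log2 3.11 ± 0.36 (SE, edgeR adjusted p = 5.31e-14), and at 8.61 and 0.226 in the other wounds. Cxcl1, another neutrophil attractant, was at 0.108 and 0.0574 against 0.893, log2 3.28 ± 0.40 (edgeR adjusted p = 7.04e-13), and at 1.91 and 0.226 in the other wounds. For both, wounded library 3 lay close to the un-wounded libraries. Tnfaip6, a hyaluronan-binding protein of inflammation, was at 0.0571 and 0.287 against 0.649, log2 2.54 ± 0.42 (edgeR adjusted p = 3.25e-06). Ccl7 was at 0.286 and 0.440 against 0.969, log2 1.59 ± 0.35 (edgeR adjusted p = 0.00435). Edn2, a vasoconstrictor peptide gene, was at 0.299 and 0.0191 against 0.691, log2 1.75 ± 0.37 (edgeR adjusted p = 0.00226).

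Most of these transcripts were far more abundant in cells outside the keratinocyte rule. In the 5456 cells of wounded library 1 under the keratin limit, Cxcl2 was at 16.2, Ccl2 at 27.1, Cxcl1 at 26.8, Ccl7 at 16.5 and Tnfaip6 at 13. Of the 15 genes that rose, 11 were at least 5 times higher in those cells than in early-response cells, and 10 were higher in other basal cells than in early-response cells. UMIs of Cxcl2 lay in 93 of the 196 cells, with at most 7 in a cell. That is 47.4% of the cells, and the share in other basal cells was 44.4%. Col1a1, a collagen gene that keratinocytes do not transcribe, had UMIs in 53.1% and 54.2% of the same cells, at a median depth of 6038 and 6158 UMIs, so the share with a Cxcl2 UMI lay below that of a fibroblast transcript. By level, Col1a1 was at 1.23 in early-response cells and at 75.2 under the keratin limit, and Cxcl2 at 1.16 and 16.2, so Cxcl2 was the less reduced of the 2. The part of free RNA in these levels was not tested. Krtap17-1, a hair keratin-associated protein gene outside the naming rule, was also called (log2 6.16 ± 0.68, edgeR adjusted p = 6.07e-16), with 46 of its 56 UMIs in 1 cell of wounded library 1. Edn2 differed from the chemokine genes. It was at 0.096 under the keratin limit, and its 82 UMIs lay in 11 of 196 early-response cells, with up to 18 in a cell. These were 5.61% of the cells, and 2 cells held 42.7% of the UMIs. In un-wounded library 1 the share of early-response cells with an Edn2 UMI was similar, at 5.09%, with up to 20 in a cell. In un-wounded library 2 it was 1.96%.

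S100a8 and S100a9, subunits of calprotectin, are named outside the rule, after their values were seen. As the only called members of the wound-activated list (2 of 11 tested), they had 0 UMIs in the un-wounded early-response cells and 23 and 28 in wounded library 1. Against a floor of 3 UMIs over both un-wounded libraries they were at least 22.6-fold and 27.5-fold higher. They too were higher under the keratin limit, at 1.37 and 1.44 against 0.194 and 0.236. Of the 5 genes called lower, Cxcl10 and Bmp2 met the naming rule, and Ctgf, Bcas3 and Hk2 are named here after their values were seen. Cxcl10, an interferon-induced chemokine, was at 0.155 and 1.15 against 0.118 (log2 -2.10 ± 0.48, edgeR adjusted p = 0.00700), and 53 of its 60 UMIs in un-wounded library 2 lay in 1 cell. Bmp2, a BMP ligand, was at 0.195 and 0.842 against 0.101 (log2 -2.03 ± 0.50, edgeR adjusted p = 0.0218), and for both genes un-wounded library 2 was high while un-wounded library 1 lay closer to wounded library 1. With all 5 libraries, 10 of 5307 genes (0.188%) were called by edgeR, all higher, among them Cxcl2, Ccl2, Cxcl1, Tnfaip6, Edn2, Il1b, S100a8 and S100a9. Leaving out a library changed that count to between 1 and 15. It was 1 without un-wounded library 1 or wounded library 1, 5 and 7 without wounded library 2 or 3, and 15 without un-wounded library 2. Cxcl2 was called in 18 of 18 alternatives that tested it, with log2 values between 7.14 and 10.47.

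**Figure D5:**
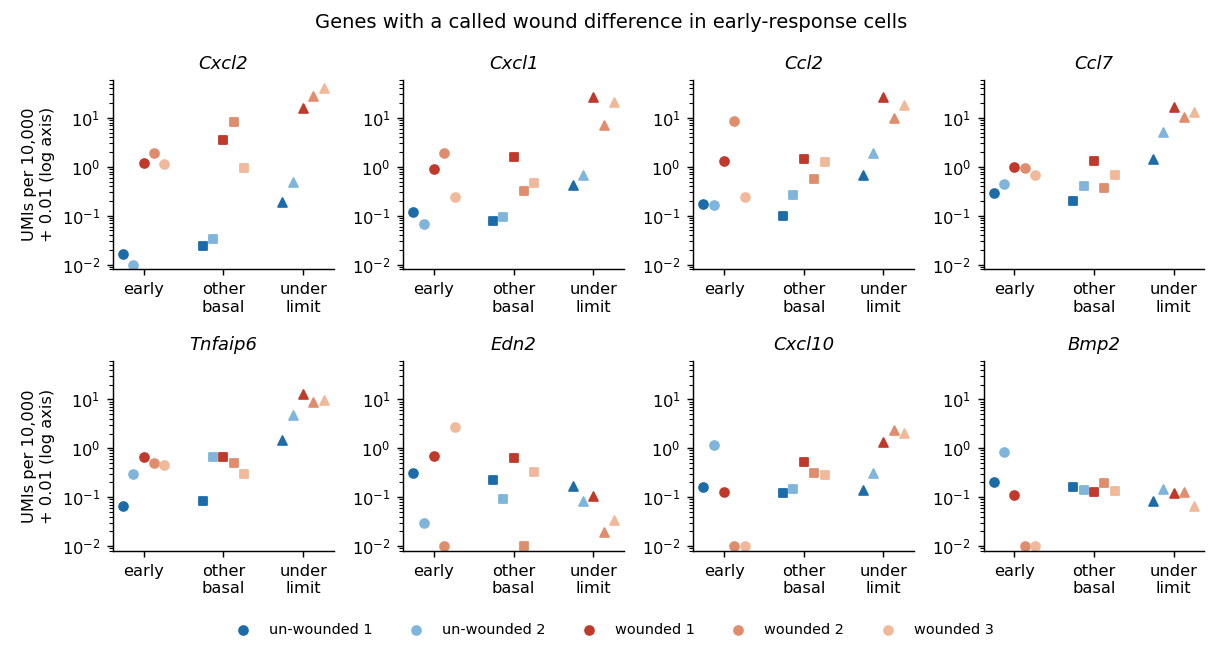
Levels of the 8 named genes with a called wound difference, in UMIs per 10,000 with 0.01 added (log axis), in early-response basal cells, other basal cells and cells under the Krt5+Krt14 limit. Each marker is a library. In wounded library 1 the chemokines and Tnfaip6 are highest under the limit, at 16.2 for Cxcl2 against 1.16 in early-response cells, whereas Edn2 is lowest there.

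The wound difference in early-response cells was also set against that in the other basal cells, with the library as block. In the 3 libraries, edgeR called 91 of 10804 genes (0.842%) for this interaction, 90 lower (0.833%) and 1 higher (0.00926%), with 672 at an unadjusted p under 0.05, and DESeq2 called 10. The gene called higher was Rsrp1, an arginine- and serine-rich protein gene, named after its value was seen. Lower means that the wounded level was less raised, or more reduced, in early-response than in other basal cells. Of 17 tested wound-activated keratinocyte genes, 8 were called lower and none higher, and Krt6a, Krt16 and Sprr1a, which epidermis switches on at wound edges, were among the 6 genes with the smallest p. Krt6a was at 0.00672, 0.344 and 0.0253 in early-response cells and at 0.0108, 0.0802 and 2.31 in other basal cells of the 3 libraries. Its interaction was log2 -8.10 ± 0.72 (SE, edgeR adjusted p = 1.76e-24). In wounded library 1, 698 of the 766 Krt6a UMIs in other basal cells lay in 2 cells, and without the 2 highest cells of each gene its interaction was 0.37 (edgeR adjusted p = 1). Sprr1a, a cornified envelope precursor, was at 0.152 against 2.68 in wounded library 1, with 815 of 889 UMIs in 2 cells. Fabp5, a fatty acid binding protein of activated keratinocytes, was at 0.463 against 4.03, with 1059 of 1336 UMIs in 2 cells, and neither gene was called without the 2 highest cells (edgeR adjusted p = 1 for both). Krt16 was at 0.354 against 3.87, with 883 of 1285 UMIs in 2 cells, and it was still called without them (log2 -1.86, edgeR adjusted p = 0.00555). Col1a1 was at 1.23 against 5.54 and was called without the 2 highest cells (log2 -1.54, edgeR adjusted p = 1.54e-05), but not after removal of likely doublets (log2 -0.26, edgeR adjusted p = 1).

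Counted by cells and not by UMIs, the same genes lay closer together in wounded library 1. Krt6a had a UMI in 1.53% of the 196 early-response and in 2.14% of the 513 other basal cells, and Fabp5 in 16.3% and 17.5%. Krt16 had one in 11.2% and 15.4%, Sprr1a in 3.57% and 7.80%, and S100a8 in 11.2% and 13.3%. Hbegf, an EGF-receptor ligand, lay the other way, in 39.8% and 33.5%. These shares were not tested.

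The interaction calls also held immediate early and feedback genes. Of 19 tested immediate early genes, 10 were called lower and none higher (Atf3, Cebpb, Klf4, Fosl2, Egr2, Junb, Csrnp1, Klf6, Nr4a1 and Ier3), as were 6 of 25 feedback genes (Zfp36, Ppp1r15a, Tnfaip3, Gadd45b, Nfkbia and Dusp5). Nfkbia had a log2 interaction of -1.14 ± 0.19 and Atf3 one of -0.98 ± 0.18. Atf3 was at 74.6, 76.6 and 68.1 in early-response cells and at 32.8, 16.8 and 41.4 in other basal cells, where wounded library 1 was the highest. For other genes the early-response level was lowest in wounded library 1. Gadd45b, a stress-induced growth regulator, was at 3.57, 4.78 and 2.59 against 2.03, 1.96 and 2.90, and Nfkbia at 17.7, 19.1 and 12.1 against 9.76, 6.52 and 11.5. The median score of the other basal cells was 52.9, 14.6 and 68.5 in the same libraries, so their distance below the threshold moved with this result. The choice by 1 threshold brings together the early-response levels of genes that climb with the score, whereas other basal levels differ by library. For such genes the interaction cannot tell the choice of cells from an effect of wounding. With all 5 libraries 22 of 7773 genes (0.283%) were called by edgeR, 21 lower (0.27%) and 1 higher (0.0129%). Gadd45b and Dusp5 were among them, and Atf3, Nfkbia and Ier3 were not. Cells thinned to 1500 UMIs gave 1 call, Arc, a gene induced by activity, which was chosen after its value was seen and was called lower.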

How the data were processed

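Single-cell RNA-seq of skin was read from 5 deposited matrices, 2 un-wounded and 3 wounded. They hold raw UMI counts per gene and barcode, from 10x 3' libraries per the labels' protocols. The submitters' processing notes name Cell Ranger 1.3.1 and the mm10 genome for these counts. UMIs mark transcripts near the 3' end, so levels were not divided by gene length. How barcodes were chosen before deposit is not given in the sources used here.

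The members and the gene lists were chosen with earlier results of these data known. Barcodes were filtered, scored and divided by the stated rule in Python 3.11.15 (scanpy 1.11.5 for Scrublet doublet scores, which flagged 7 early-response cells that the rule keeps). Counts were summed over early-response and over other basal cells of each library. Sums were tested with edgeR 4.0.16 in R 4.3.3 (TMM scaling, its filter on low counts, quasi-likelihood F-test, Benjamini-Hochberg adjustment over all genes, threshold 0.05). Each SE given with an edgeR log2 value was calculated back from the test, as its absolute size divided by the square root of F. DESeq2 1.42.0 was an alternative. The difference between the wound effects was an interaction with the library as block. The fits were tested on simulated data. Shares were compared by an exact permutation test over libraries, and intervals are exact Clopper-Pearson intervals. Log2 ratios between the sets used 0.05 UMIs per 10,000 as pseudocount, over genes with a mean of at least 0.1 UMIs per 10,000. All 27998 genes of the table entered library totals, and 27645 identifiers matched the GRCm38 annotation.

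Named genes followed a rule. For the wound effect they needed an adjusted p under 0.05, a log2 change of at least 1, at least 0.5 UMIs per 10,000 in the higher group and groups that do not overlap. For early-response against other basal cells they were the 15 largest ratios up and the 8 largest down, at 1 UMI per 10,000 or more and in the same direction in 3 libraries. For the interaction they were the 6 smallest p-values, and the most abundant genes of each list could be named. Wounded libraries 2 and 3 hold 2 and 6 early-response cells and were left out of the main tests. The replicates of un-wounded skin differed beyond sampling noise (chi-square per degree of freedom 6.28 over 9672 genes).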

Additional observations from a re-analysis of the deposited data

Results flagged for a closer look

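The wound effect in early-response cells differed from that in other basal cells for 6 named genes by the test of the difference itself, an interaction term in edgeR's quasi-likelihood fit with Benjamini-Hochberg adjustment. On the log2 scale it was -8.10 for Krt6a, -2.99 for Fabp5, -3.93 for Sprr1a, -3.10 for Krt16, -3.85 for Cxcl10 and -1.97 for Col1a1. In other basal cells of wounded library 1, 2 cells held 91.1% of the Krt6a UMIs, 91.7% of those of Sprr1a, 79.3% of those of Fabp5, 78.8% of those of Cxcl10, 68.7% of those of Krt16 and 42% of those of Col1a1.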

How the results depend on the processing

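The difference in the share of early-response cells kept its sign in 16 of 17 alternatives and turned to 3.70 percentage points without un-wounded library 1 (range without 1 library -13.98 to 3.70). The cause of this and of the changes below was not tested. The 20 genes called for the wound effect became 2 with DESeq2, 6 and 35 with the top 10% and 50% of scores, 5 with the top 25% within each library, 5 with doublets removed, 4 with cells thinned to 1500 UMIs and 4 without the 2 highest cells of each gene. With all 5 libraries, added after seeing the data, they were 10, then 10 with doublets removed, 5 with DESeq2, 13 without TMM scaling, 11 with the replicate number as block, and 1 to 15 without 1 library (7 without wounded library 3). Without TMM scaling and without the filter in the 3 libraries the counts were 20 and 25. Of the values of named genes for the wound effect, 68 stayed called, 68 were no longer called and 0 reversed. Cxcl2 was called in 18 of 18 and Ccl2 in 16 of 18 alternatives, Cxcl1 in 14 of 18, Tnfaip6 in 8 of 19, Edn2 in 6 of 17, Ccl7 in 3 of 19, Cxcl10 in 2 of 10 and Bmp2 in 1 of 17.

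The 91 interaction calls became 10 with DESeq2, 21 with the top 10%, 134 with the top 50%, 34 with the top 25% within each library, 1 with thinned cells and 35 without the 2 highest cells. With all 5 libraries they were 22, then 19 with doublets removed, 6 with DESeq2, 32 without TMM scaling, and 3 to 43 without 1 library (30 without wounded library 1). The Krt6a interaction turned to 0.37 without the 2 highest cells, and that of Sprr1a to 1.83 in all 5 libraries without un-wounded library 1. In the 3-library fits the replicate block and leaving out an un-wounded library left no residual degrees of freedom. Leaving out wounded library 1 left no wounded library to compare. None of these fits was run. The replicate numbers of the labels tie libraries to no shared animal or day. Only 1 wounded library has more than 10 early-response cells, which limits every wounded value.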
